A study of Macaca mulatta with 5 samples.

Results

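Collecting duct cluster c13 is the set of single cells that the study's authors named Collecting Duct_c13 in kidneys of fetal rhesus macaques. Its members were taken by that name alone, and 1158 of the 36039 cells of the 5 libraries analysed carried it. The kidneys were enriched for cortex and came from the late second and the third trimester, with no treatment or genotype named in the labels. Libraries 600 and 628 (dissected, n = 2) were prepared by cutting out the cortex by hand and digesting it in the cold, and libraries 623, 627 and 632 (vortexed, n = 3) by vortexing in a cold Bacillus licheniformis mix that releases mainly cortical cells. The labels do not give the gestational age of each library, nor state that the 5 libraries come from separate animals, so a p-value here weighs a difference against the spread between libraries, which may be technical. All 5 libraries are rhesus, and the balance with human cells was not analysed here.

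The collecting duct is the outlet of the kidney tubule and descends from the ureteric bud, not from the nephron progenitors. Its branching tips carry RET, the receptor for a growth factor made by the cap mesenchyme that surrounds them, and its stalks mature into principal cells, which take up water through the channel AQP2, and intercalated cells, which secrete acid or base. GATA3, a transcription factor of the ureteric lineage, and CALB1, a calcium-binding protein of the distal nephron and duct, are further markers of these cells. The table analysed lists a cluster name, a library and a position for each cell, with no gene values, so the name c13 was not checked against AQP2, GATA3, CALB1 or RET, and sequencing depth is unknown.

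The collecting duct cluster was larger in both dissected libraries than in any vortexed library. It held 325 of 6839 cells in library 600, or 4.75% (exact 95% binomial interval, 4.26 to 5.28), and 341 of 6329 in library 628, or 5.39% (4.84 to 5.97). In the vortexed libraries it held 301 of 9816 cells in 623, or 3.07% (2.73 to 3.43), 130 of 10502 in 627, or 1.24% (1.04 to 1.47), and 61 of 2553 in 632, or 2.39% (1.83 to 3.06). These intervals cover counting error only. The highest and lowest libraries differed 4.35-fold, and by size the cluster ranked between 6 (library 628) and 19 (library 627) among the 37 clusters. As a mean over libraries it made up 3.37% ± 1.70 (SD, n = 5).

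**Figure D1:**
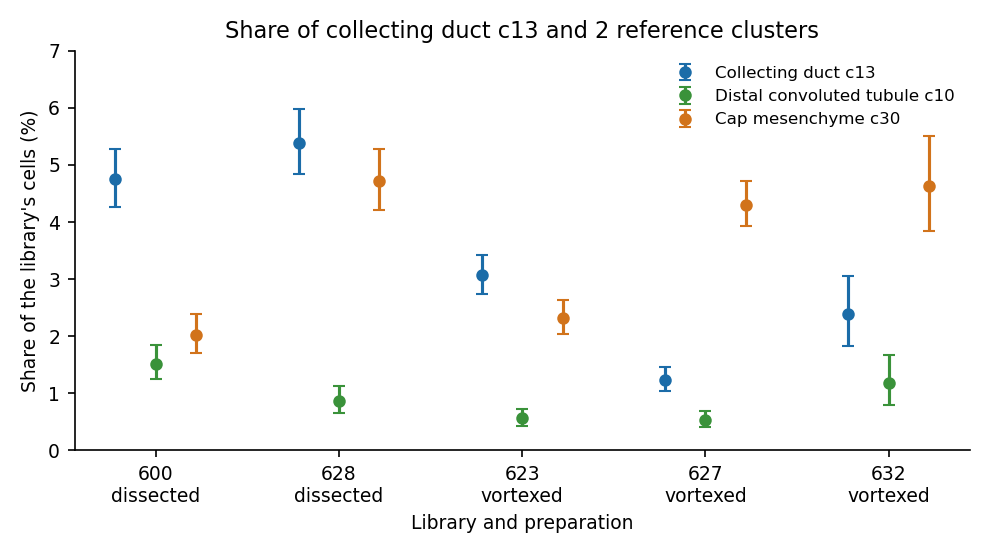
Share of each library's cells (%, vertical axis) named collecting duct c13, distal convoluted tubule c10 or Cap mesenchyme c30, for the 5 libraries with their preparation; points are single libraries and bars the exact 95% binomial intervals. The c13 points of libraries 600 and 628 lie at 4.75% and 5.39%, above the 3 vortexed points.

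The mean share was 5.07% ± 0.450 (SD, n = 2) in dissected and 2.23% ± 0.924 (SD, n = 3) in vortexed libraries, a difference of 2.84 percentage points. The exact two-sided permutation p was 0.1, the smallest that 2 libraries against 3 allow, and 0.4 after Benjamini-Hochberg adjustment over 4 comparisons, so the difference could not be called. No overlap with a higher share in dissected libraries was found for 29.7% of all clusters (11 of 37), c13 among them, so the cluster is not set apart by it. In limma, fitted to the log2 odds of the share over all 37 clusters, c13 gave a log2 odds ratio of 1.32 (SE 0.70, 95% interval -0.32 to 2.95, limma adjusted p = 0.487). It ranked 8 from the highest of the 37, whose median was 0.25. In that fit 13.5% of clusters (5 of 37) had an unadjusted p below 0.05 with a higher share in dissected libraries, and 0% passed the adjusted threshold; c13, with an unadjusted limma p of 0.0995, was in neither set.

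Both reference clusters overlapped between preparations. Distal convoluted tubule c10, the salt-reabsorbing segment that drains into the collecting duct by way of a connecting tubule, made up 1.52% of library 600 and 0.869% of 628, against 0.560%, 0.533% and 1.18% of 623, 627 and 632. Its log2 odds ratio was 0.70 (SE 0.72, limma adjusted p = 0.695). Cap mesenchyme c30 is named for the progenitor tissue around the ureteric tips. It made up 2.02% and 4.72% of libraries 600 and 628 and 2.32%, 4.30% and 4.62% of 623, 627 and 632. Its log2 odds ratio was -0.22 (SE 0.74, limma adjusted p = 0.892).

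Ratios of cell numbers within a library do not depend on the other cell types. Per cell of Loop of Henle c15, the hairpin segment that concentrates urine, there were 3.87 c13 cells in library 600, 2.29 in 628, 2.95 in 623, 3.02 in 627 and 3.39 in 632. This was the steadiest of the 7 single-cluster ratios computed, with a log2 ratio of 1.60 ± 0.28 (SD, n = 5). Per cell of Intercalated cell c11 there were 1.52, 2.45, 1.72, 1.44 and 2.03 c13 cells in the same order of libraries (log2 ratio 0.84 ± 0.31, n = 5). Intercalated cell c9, the other cluster named for acid-base cells, behaved differently between libraries. Its ratio was 1.41 in library 600, which held 231 of its 302 cells, and 21.3, 12.5, 7.65 and 4.36 in 628, 623, 627 and 632 (log2 ratio 2.69 ± 1.49, n = 5).

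Against the distal convoluted tubule c10, c13 cells were the more numerous in 5 of 5 libraries. There were 3.13 c13 cells per c10 cell in library 600, 6.20 in 628, 5.47 in 623, 2.32 in 627 and 2.03 in 632. Against Thick ascending limb c12, which takes up salt but little water, the ratio was 1.24 in library 600 and 1.30 in 628, both dissected, and 2.64 in 623, 2.71 in 627 and 2.10 in 632. The ratio to c12 was thus lower in both dissected libraries than in any vortexed library. Of the 7 single-cluster ratios, that to c16 also did not overlap, in the other direction, and both contrasts were picked out with their values known and not tested.

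Against Cap mesenchyme c30 the order turned between libraries. There were 2.36 c13 cells per c30 cell in library 600, 1.14 in 628 and 1.32 in 623, but 0.288 in 627 and 0.517 in 632. Interstitial Cell Lineages c16, a stromal name, gave 0.973 c13 cells per c16 cell in library 600 and 1.39 in 628, against 0.747 in 623, 0.274 in 627 and 0.122 in 632, higher in both dissected libraries than in any vortexed library.

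None of the ratios compared between preparations could be called. The log2 ratio of c13 to c30 was 0.71 ± 0.74 (SD, n = 2) in dissected and -0.78 ± 1.11 (n = 3) in vortexed libraries, a difference of 1.49 (exact permutation p = 0.3, adjusted p = 0.6). The difference was 0.969 without library 600 and 0.984 without library 627. For c13 to c10 the log2 difference was 0.58 (exact permutation p = 0.5, adjusted p = 0.667). With 1 library left out it ranged from 0.0855 without 628 and 0.306 without 632 to 1.02 without 623 and 1.07 without 600. With all distal nephron clusters (c10, c12 and c15) in place of c10 it turned to -0.34. For c13 to both intercalated clusters together the log2 difference was -0.11 (exact permutation p = 0.8, adjusted p = 0.8), and it turned to 0.69 without library 600.

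**Figure D2:**
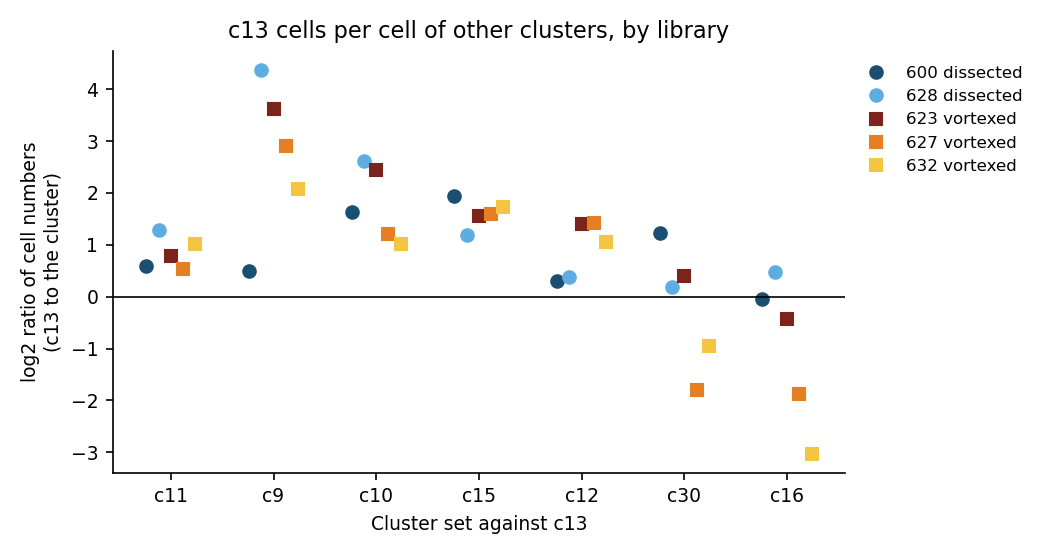
Log2 ratio of the number of c13 cells to the number of cells of another cluster (vertical axis, 0.5 cells added to both) for 7 clusters (horizontal axis); each point is a library, round for dissected and square for vortexed. The points for Loop of Henle c15 lie closest together (SD 0.28) and those for Intercalated cell c9 are spread widest (SD 1.49).

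In the authors' UMAP embedding, an arbitrary 2-axis layout of the integrated data in which cells with similar expression tend to lie close, c13 was not a single body of cells. Joining c13 cells that lay within 1 unit of each other gave 4 separate patches and 10 cells in none. Patch 1 held 903 cells (78.0%), patch 2 held 153 (13.2%), patch 3 held 50 (4.32%) and patch 4 held 42 (3.63%). Their median positions on the axes were 1.69 and 8.05 for patch 1, 4.68 and 2.21 for patch 2, 10.4 and -4.20 for patch 3, and -9.15 and 5.51 for patch 4. Patches 3 and 4 lay 15.01 and 11.1 units from patch 1. Distances in such a layout have no fixed meaning, and the clusters and the layout come from the same cells, so this is a description.

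**Figure D3:**
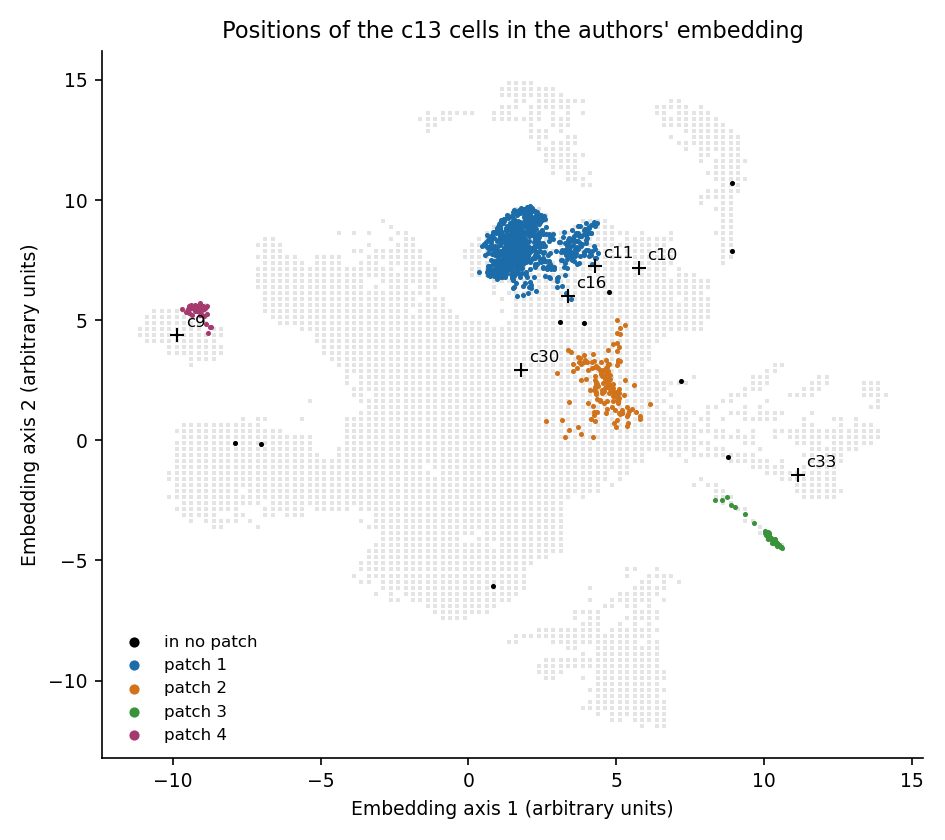
Positions of the 1158 c13 cells in the authors' embedding (both axes in arbitrary units), coloured by patch, over all cells of the 5 libraries in grey; crosses mark the median position of other clusters. Patch 1 holds 903 cells and the remaining 3 patches lie apart from it, patch 4 beside the median of Intercalated cell c9.

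Under the same rule, c13 was the single cluster of the 37 with 4 patches of at least 20 cells, while 17 clusters had at least 2. Both references formed 1 patch, with 99.7% of c10 cells and 99.4% of c30 cells in it. Intercalated cell c11 was also split, with 2 patches of at least 20 cells and 76.2% of its cells in the largest. The count for c13 depends on the join distance, since patches 1 and 2 merged within 1.5 units. By the share in the largest patch, however, 11 clusters lay below the 78.0% of c13, so its main body was not unusually small. The number of patches also depends on how many cells a cluster has.

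Patches 1 and 2 were found in every library and patches 3 and 4 mainly in some. Patch 1 held 75.7% of the c13 cells of library 600, 90.3% of 628, 74.8% of 623, 64.6% of 627 and 65.6% of 632. Patch 2 held 11.1% of the c13 cells in 600 and 8.80% in 628, against 14.6% in 623, 19.2% in 627 and 29.5% in 632. As shares of c13, neither patch 1 (higher in dissected libraries) nor patch 2 (lower) overlapped between preparations, which was seen after the values and not tested. As a share of all cells of a library, patch 2 did overlap, with 0.526% in 600 and 0.474% in 628, against 0.448% in 623, 0.238% in 627 and 0.705% in 632.

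Patch 3 came from 2 vortexed libraries alone. It held 31 of the 301 c13 cells of library 623, or 10.3% (exact 95% interval, 7.11 to 14.3), and 19 of the 130 of library 627, or 14.6% (9.03 to 21.9). It held 0 of 325 in library 600, 0 of 341 in 628 and 0 of 61 in 632. Allowing 3 cells for a count of 0, these shares could reach 0.923%, 0.880% and 4.92%. The exact 95% intervals reach 1.13%, 1.08% and 5.87%. Without libraries 623 and 627 there would be no patch 3.

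Patch 4 came mainly from library 600, which gave 37 of its 42 cells (88.1%). They were 11.4% of that library's c13 cells (exact 95% interval, 8.14 to 15.3), against 1 cell in 628, 1 in 623, 2 in 627 and 1 in 632. Library 600 was also the source of 76.5% of all cells named Intercalated cell c9, beside which patch 4 lay. In library 600, c9 made up 3.38% of the cells, against 0.162% to 0.548% in the other 4. The part of this library's intercalated cells in patch 4 was not tested.

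**Figure D4:**
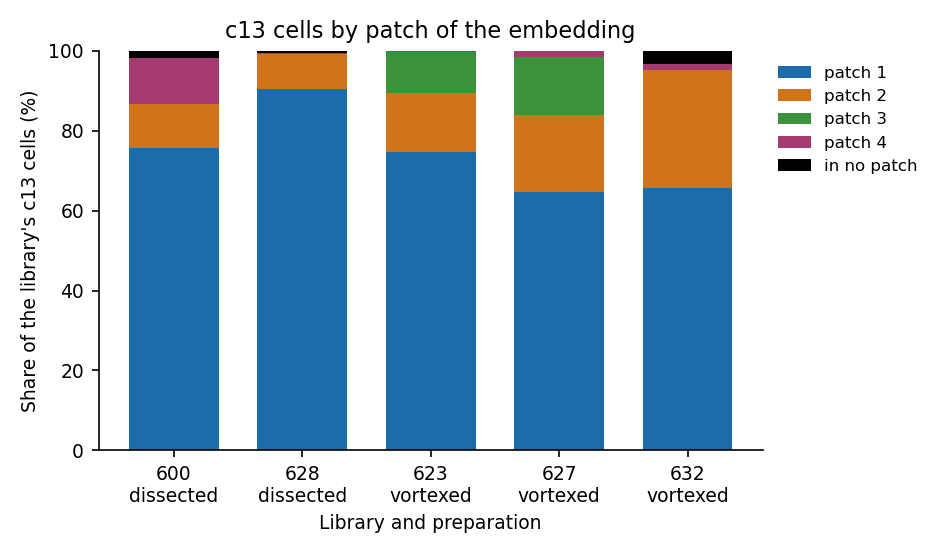
Share of each library's c13 cells (%, vertical axis) in the 4 patches of the embedding or in none, stacked to 100%, for the 5 libraries. Patch 3 appears in libraries 623 and 627 (10.3% and 14.6%) and patch 4 mainly in library 600 (11.4%).

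With patch 1 alone, c13 made up 3.60% of library 600 and 4.87% of 628, against 2.29% of 623, 0.800% of 627 and 1.57% of 632. The values did not overlap, as for the whole share of 29.7% of all clusters (11 of 37) in that direction. The difference was 2.68 points, against 2.84 with all patches. Within patch 1 the median on the second axis was 8.36 in library 600, 8.35 in 628 and 8.25 in 632, but 7.64 in 623 and 7.59 in 627. The same 2 libraries thus lay lower within patch 1 and supplied patch 3.

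Other names lay among the c13 cells of patch 1. Within 0.5 units of a patch 1 cell there were 2551 cells, of which 903 were c13 themselves, 1042 were Interstitial Cell Lineages c16, 276 Cap mesenchyme c30, 268 Intercalated cell c11 and 1 distal convoluted tubule c10. For c16 this was 53.2% of all its cells in the 5 libraries, and from 47.8% (library 632) to 61.3% (library 623) in each. For c11 it was 41.4%, with 13.3% in library 632 and 32.7% to 52.2% in the other 4. For c30 it was 22.3%, with 46.8% in 628, 29.8% in 623, 13.04% in 600, 9.73% in 627 and 5.08% in 632. For c10 it was 0.333% around patch 1. Within 0.5 units of a c13 cell of patch 2 lay 69 of the 300 c10 cells (23.0%), from 10.9% in library 628 to 36.7% in 632. That area held 5395 of all 36039 cells. The share in it was 66.4% for Loop of Henle c15, 36.6% for Differentiated NPC c19, 22.8% for c30 and 14.8% for Proximal tubule c18. A share like that of c10 was therefore not particular to c10.

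The patches differed in part of what surrounded them. Within 0.5 units of patch 3 there were 73 cells, of which 50 were c13, 10 were Epithelial c23, a name without a segment, and 6 Proximal tubule c18. Farther out, Macrophage c33, an immune name, made up 26.7% of the 15 closest differently named cells of patch 3 in library 623 and 61.1% in 627. It came first in 627 alone. In library 623 Epithelial c23 came first with 37.2%, and c23 made up 17.5% in 627. Within 0.5 units of patch 4 there were 142 cells, with 53 Intercalated cell c9, 42 c13 and 39 Intercalated cell c11. Patch 2 lay in a mixed area, where c13 was 2.84% of the 5395 cells within 0.5 units and the largest names were Differentiated NPC c19 with 594 cells and Broad proximal diff c17 with 489, both early nephron names. Among the 15 closest differently named cells of patch 2 in the same library, however, c16 came first by the mean over libraries. It made up 19.6% ± 9.12 (SD, n = 5) against a reference share of 8.56%, above it in 5 of 5 libraries. By library, c16 came first in the vortexed libraries only, with 34.8% in 632. In the dissected libraries c19 came first, with 23.3% against 16.5% for c16 in 600 and 13.6% against 10.7% in 628. By the mean, c19 was next with 11.4% ± 7.42 against 5.45%. Around patch 1, c16 made up 37.8% ± 32.2, above its reference share in 5 of 5 libraries, so patches 1 and 2 shared this neighbour. By the mean, c30 came first around patch 1, with 47.4% ± 25.7. It lay above its reference share in 4 of 5 libraries, but not in 632 (4.83% against 4.99%).

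Neighbours were defined within a library as the 15 closest cells carrying another name, leaving out clusters named by cell cycle phase, and compared with the share of that name among all such cells of the library. Cap mesenchyme c30 came first for c13 by the mean over libraries, with 36.9% ± 19.0 (SD, n = 5) against a reference share of 4.40%. By library it was 33.2% in 600, 52.2% in 628, 47.5% in 623 and 46.1% in 627, but 5.36% in 632, where its reference share was 4.99%. Interstitial Cell Lineages c16 came second, with 30.6% ± 24.1 against 8.56%. By library it was 27.6%, 14.3%, 19.9% and 18.4% in 600, 628, 623 and 627 and 72.8% in 632, where c16 was 21.2% of the reference cells. Library 632 therefore stood apart, and without it the means were 44.8% for c30 and 20.1% for c16.

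Intercalated cell c11 followed among the neighbours of c13, with 10.4% ± 7.66 (n = 5) against 2.17%. It lay above its reference share in 5 of 5 libraries, with 15.9% in 600, 20.1% in 628, 10.2% in 623, 4.05% in 627 and 1.97% in 632. Broad proximal diff c17 (2.76% ± 1.64) and Intercalated cell c9 (2.51%) came next, and 9.91% of the neighbours in library 600 were c9. Within patch 1, c16 made up 94.2% of the neighbours in library 632, against 14.8% to 33.9% in the other 4 libraries. In that patch c11 lay above its reference share in 4 of 5 libraries, but not in 632 (0.667% against 1.27%).

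**Figure D5:**
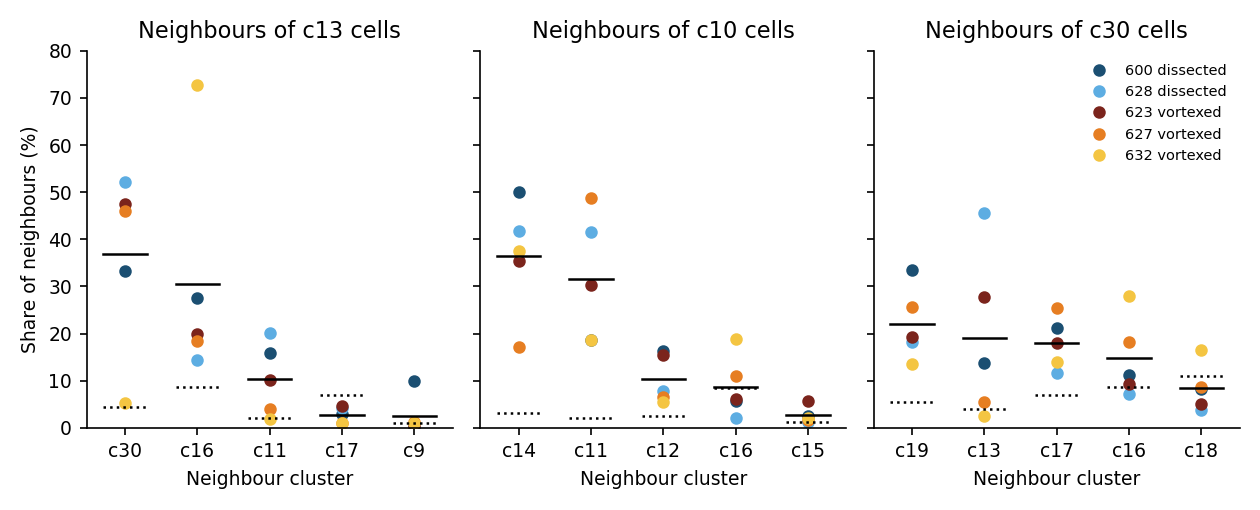
Share of the 15 nearest differently named cells (%, vertical axis) held by the 5 most frequent neighbour clusters of c13, c10 and c30; points are the 5 libraries, solid bars their mean and dotted bars the mean reference share. For c13 the means of c30 and c16 are 36.9% and 30.6%, with library 632 at the bottom for c30 and at the top for c16.

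The references shared some neighbours with c13 and had others. For distal convoluted tubule c10 the most frequent were Differentiated NPC c14 (36.4% ± 12.1, n = 5) and Intercalated cell c11 (31.6% ± 13.5), followed by Thick ascending limb c12 (10.4% ± 5.13). For Cap mesenchyme c30 they were Differentiated NPC c19 (22.0% ± 7.80), c13 (19.0% ± 17.8) and Broad proximal diff c17 (18.05% ± 5.48). Interstitial Cell Lineages c16 came next around c30, with 14.8% ± 8.47 against 8.67%, above its reference share in 5 of 5 libraries. The nephron progenitor name NPC c25 made up 3.12% ± 2.69 around c30 against 12.4%, above its reference share in 0 of 5 libraries. Closeness to c11 and c16 was therefore not particular to c13. The c13 share around c30 cells was 45.6% in library 628, 27.7% in 623, 13.7% in 600, 5.46% in 627 and 2.60% in 632, against a reference of 3.99% on average. Around c11 cells c13 made up 17.7% ± 12.7 of the neighbours, and around c16 cells 17.5% ± 7.49, both above the reference in 5 of 5 libraries.

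Taken over all patches, cells of c13 lay mostly among their own. Patch 2 differed, since c13 was 2.84% of the cells within 0.5 units of it, against 3.21% of all cells. Of the 15 nearest cells of any name in the same library, 75.2% carried the name c13 in library 600, 75.8% in 628, 68.6% in 623, 64.9% in 627 and 56.6% in 632. The mean of 68.2% ± 7.94 (n = 5) compared with 49.7% ± 17.1 for c10 and 33.5% ± 11.04 for c30. This measure also rises with the number of cells of a name, which was 1158 for c13, 300 for c10 and 1235 for c30. Cells with 0 others of their name among the 15 made up 7.38% of c13 in library 600, 6.16% in 628, 4.65% in 623, 8.46% in 627 and 23.0% in 632, the library with the fewest c13 cells.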

How the data were processed

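Single-cell libraries were made by the authors with 10x Genomics 3' version 3 chemistry, per the labels' protocols. The submitters' processing notes name Cell Ranger 6.0.1, Seurat and an hg19 build without stating for which step each served. How cells were filtered, doublets treated, species integrated and clusters drawn is not stated there. The deposited table has 1 row per cell, with the authors' cluster name and a position in the UMAP embedding, an arbitrary score on 2 axes, per the file headers. No gene values, counts or depths are listed.

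Rows whose library name matched a title were used, giving 5 libraries; 58227 rows of 11 other library names were not analysed here. Between these libraries 143 barcodes occurred in 2 libraries and 0 in more than 2, 11 of the cells concerned being c13. Preparations follow the sample numbers in the extraction protocol.

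Shares carry exact (Clopper-Pearson) 95% intervals, and a count of 0 allows 3 cells. Preparations were compared by exact two-sided permutation over 10 regroupings and by limma 3.58.1 (R 4.3.3) on log2 odds with 0.5 cells added, for clusters of at least 10 cells. The limma fit was run on simulated tables to check false calls and the direction of changes larger than that of c13. Those tables do not show whether a difference of the size seen for c13 could be called. Patches were found with DBSCAN (scikit-learn 1.9.0; distance 1, at least 5 cells). Neighbours were described for libraries with at least 15 cells. Clusters named were c13, its references, the distal nephron and intercalated clusters and the 5 most frequent neighbours; others were named after their values were seen. The members and lists were chosen with earlier results of these data known, and the patches after the positions had been seen.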

Additional observations from a re-analysis of the deposited data

How the results depend on the processing

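The higher c13 share in dissected libraries kept its direction under every alternative run, at 2.81 to 3.11 points over other denominators, 2.82 without shared barcodes and 2.34 (without 627) to 3.26 (without 623) with 1 library left out. The limma log2 odds ratio ranged from 0.92 (epithelial clusters only) to 1.32 over other settings and from 0.933 (without 627) to 1.60 (without 623) with 1 library left out, where a lone dissected library is assumed to vary like the others; the limma adjusted p lay between 0.385 and 0.969 in all of these fits. The number of clusters past the limma threshold stayed 0 in each of these fits, with 2 to 6 at an unadjusted p below 0.05. The log2 difference of c13 to intercalated cells, -0.11, ranged from -0.90 to 0.69 with 1 library left out and turned to 0.173 with c11 alone and to 0.169 with patch 1 alone, and that of c13 to c10, 0.58, turned to -0.34 with all distal nephron clusters, where c12 and c15 enter the ratio; for the others the cause was not tested. Joined within 1.5 units, patches 1 and 2 merged, and the largest patch held 91.5% of c13 cells instead of 78.0%; within 0.6 units it stayed 78.0%. The share of c30 among neighbours was 29.1% with 50 neighbours, where c16 came first with 39.0%, and 45.3% over the 5 libraries together; with 1 library left out it ranged from 33.05% (without 628, where c16 came first with 34.7%) to 44.8% (without 632). No paired analysis was possible because the libraries of the 2 preparations share no replicate numbers. The permutation tests over 2 against 3 libraries cannot pass a threshold of 0.05 at any size of difference, and the depth per cell is unknown.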
